A study of Bos taurus with 18 samples.

Results

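The heat response of undifferentiated MAC-T cells was followed in 6 of the 18 libraries of the series, chosen by their labels: 3 of cells heated at 42 °C for 1 h (HSUD) and 3 of cells kept at 37 °C (NHSUD). MAC-T is an established line of bovine mammary epithelial cells, immortalised with a viral large T antigen. Both groups grew for 4 days in a basal medium with serum, insulin (5 µg/ml) and hydrocortisone (1 µg/ml), a glucocorticoid that the unheated cells therefore received too. Per the labels, the experiment was run 3 times. The replicate number was taken as the run, which the labels do not state outright, so each heated library has an unheated partner. Within a run the unheated cells sat on one plate and the heated cells on another, so heat and plate cannot be told apart. Each library pooled RNA of 2 technical replicates, picked for RNA concentration and quality per the labels. The other 12 libraries, of cells in a lactogenic medium with prolactin and dexamethasone (unheated, heated, or returned to 37 °C for 2 h or 6 h), served to estimate the spread and, for heat, as a side-by-side comparison.

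Heat unfolds proteins. Unfolded protein draws chaperones away from heat shock factor 1 (HSF1), which then binds heat shock elements and drives transcription of chaperone genes. HSP70 proteins hold exposed stretches of a client in a cycle of ATP hydrolysis, J-domain proteins start that cycle, nucleotide exchange factors end it, and HSP90 takes over clients close to their folded form. Bovine mammary epithelium is a well-known target of heat stress, since lactating cows lose milk yield in hot weather.

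The 6 libraries held 42001929 to 61155755 counts. HSUD replicate 2 stood apart from the other heated libraries. It had 17348 detected genes against 16501 and 16782, and a scaling factor of 1.01 against 0.88 and 0.92. The unheated libraries had 17007 to 17342 genes and factors of 0.98 to 1.03, so HSUD replicate 2 lay near them in both. HSUD replicate 2 also had 248 CPM (counts scaled to a common library total) of the proliferation gene MKI67. This was against 32.6 and 35.8 in the other heated and 43.1 to 72.2 in the unheated libraries. MKI67 had the largest estimated change with heat of 23 tested mitosis genes. The median log2 fold change of that list was 0.09 both with and without HSUD replicate 2. The heated lactogenic library of replicate 2 was similar in part. It had 17608 detected genes, against 17203 and 17166 in heated lactogenic replicates 1 and 3. Unheated lactogenic replicates 1 to 3 had 17077, 17569 and 17658, so high gene numbers were not particular to heated libraries of replicate 2. The log2 ratio of MKI67 in heated lactogenic replicate 2 to its unheated partner was 1.48, against -0.12 and -0.61 in replicates 1 and 3. Results that depend on HSUD replicate 2 are given with and without it. Epithelial markers matched the label: the 10 listed genes, KRT8, KRT18 and KRT5 among them, were all tested and summed to 20800 to 27100 CPM without and 21600 to 29400 with heat. Of the fibroblast list, DCN was at 461 to 799 CPM and PDGFRA at 5.85 to 9.42 CPM, while COL1A1 and COL1A2 stayed under 0.2 CPM. COL3A1, PDGFRB and LUM did not exceed 1.07 CPM. The adipocyte list summed to 2.71 to 7.48 CPM. Endothelial and leukocyte lists summed to under 3 CPM in each library, with CDH5 at 0 in all 6. The milk protein genes CSN1S1, CSN2, LALBA and PAEP had no read in any of the 6 libraries.

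Heat raised 58 genes and lowered 38 of the 15158 tested, 0.633% in all (0.383% higher and 0.251% lower; edgeR, adjusted p under 0.05, the meaning of "called" throughout). The 58 genes made up 0.867% ± 0.0723 of the unheated and 2.77% ± 0.486 of the heated libraries' counts (SD, n = 3), and the 38 took 0.282% ± 0.0279 and 0.162% ± 0.0158. These are amounts relative to the whole library. In bulk RNA, fewer cells of a type and less RNA per cell cannot be told apart. A change of at least 1 on the log2 scale was reached by 32 of the higher and 12 of the lower genes. All 3 heated libraries lay beyond all 3 unheated ones for 55 of the 58 and 30 of the 38, against 3.99% and 3.63% of all tested genes. The same libraries chose the called genes, so this separation is no separate evidence. Among the called genes in the plot of all genes, HSPA6, HSPA1A and DNAJB1 stood far above the rest. No gene that was called lower and lay above 2 CPM fell by more than 1.35 on the log2 scale.

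**Figure D1:**
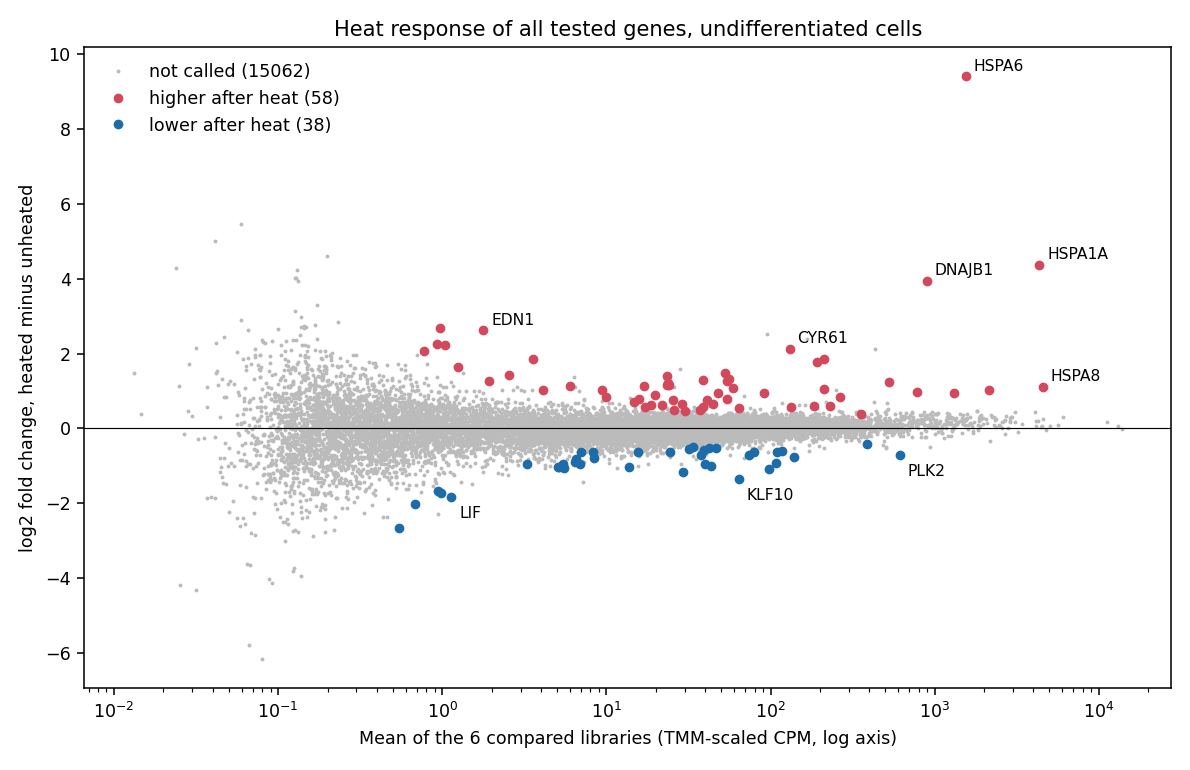
Change with heat of each of the 15158 tested genes (vertical axis, log2 fold change, HSUD minus NHSUD) against its mean over the 6 libraries (horizontal log axis, TMM-scaled CPM). Red points are the 58 genes called higher and blue points the 38 called lower, and grey points were not called.

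The count rests on the run structure and on single libraries. Without the replicate block 19 genes were called (18 of the 96 among them), and 16 of the 42 called genes named in this text kept their call: HSPA6, HSPA1A, DNAJB1, DNAJB4, HSP90AA1, FKBP4, HSPB1, CLK1, CLK4, RSRP1, CCDC117, USPL1, DEDD2, NABP1, JUN and KLF10. Without HSUD replicate 2 the count was 766 (4.94% of genes; 535 or 3.45% higher, 231 or 1.49% lower), with 92 of the 96 among them, and calls from that fit are read against these shares. Leaving out any other single library of the 6 gave 36 to 55 genes. With scaling by library size alone the split was 42 higher and 48 lower, since that scaling moved the median of all genes by -0.10. Of the 42 named called genes, 22 were called whichever of the 6 libraries was left out, and those among the other 20 that are described below are marked there.

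Among the called genes, HSPA6 and HSPA1A of the HSP70 family had the 2 highest log2 fold changes. Of the 9 tested cytosolic HSP70 genes, 4 were called higher and 0 lower, with a median log2 fold change of 0.15 against 0.0088 over all tested genes. The same 4 were called without HSUD replicate 2. The other listed gene, HSPA1B, has no entry in the deposited table, and whether its reads were counted under HSPA1A is not known. HSPA6, a strictly stress-induced HSP70, was at 4.53, 3.92 and 4.89 CPM in the unheated libraries of runs 1 to 3 and at 3814, 3321 and 2119 CPM in the heated ones. It went from a few CPM to 2119 CPM or more in each run, a log2 fold change of 9.39 ± 0.87 (SE; 671-fold; adjusted p of 0.000525). HSPA1A, the main inducible HSP70, was at 429, 348 and 432 CPM without heat and at 9110.3, 9573 and 6195 CPM with it. Here the starting level was already substantial, and the log2 fold change was 4.36 ± 0.66 (adjusted p of 0.0148). Its call was lost without any 1 of the 3 NHSUD libraries or without HSUD replicate 1 (adjusted p of 0.0543 to 0.0968). HSPA6 and HSPA1A have near-identical stretches and may share reads, and together they made up 0.041% ± 0.0043 of the unheated and 1.07% ± 0.28 of the heated libraries' counts.

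The constitutive HSP70, HSPA8, which serves the cytosol of unstressed cells, was at 3822, 2571 and 2331 CPM in NHSUD and at 7539, 5901 and 5132 CPM in HSUD. Runs 2 and 3 started lower than run 1 and ended lower, with similar ratios, and the gene rose by a log2 fold change of 1.10 ± 0.21 (adjusted p of 0.017). That call was lost without NHSUD replicates 2 or 3 or HSUD replicates 1 or 3 (0.0663 to 0.126) and without the block (0.21). HSPA1L, which neighbours HSPA1A in the RefSeq gene table and is a close copy of it, went from 1.53, 1.52 and 1.14 CPM to 4.24, 3.82 and 3.12 CPM, a rise of 1.42 ± 0.25 on the log2 scale (adjusted p of 0.00561). It was not called without NHSUD replicate 1 (0.0546) or without the block (0.103). As a close copy, HSPA1L may also take in some reads of HSPA1A, which was at far higher CPM. The part of such reads in its rise was not tested. The remaining 5 members (HSPA2, HSPA12A, HSPA12B, HSPA13 and HSPA14) had estimates between -0.03 and 0.15 and were not called.

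**Figure D2:**
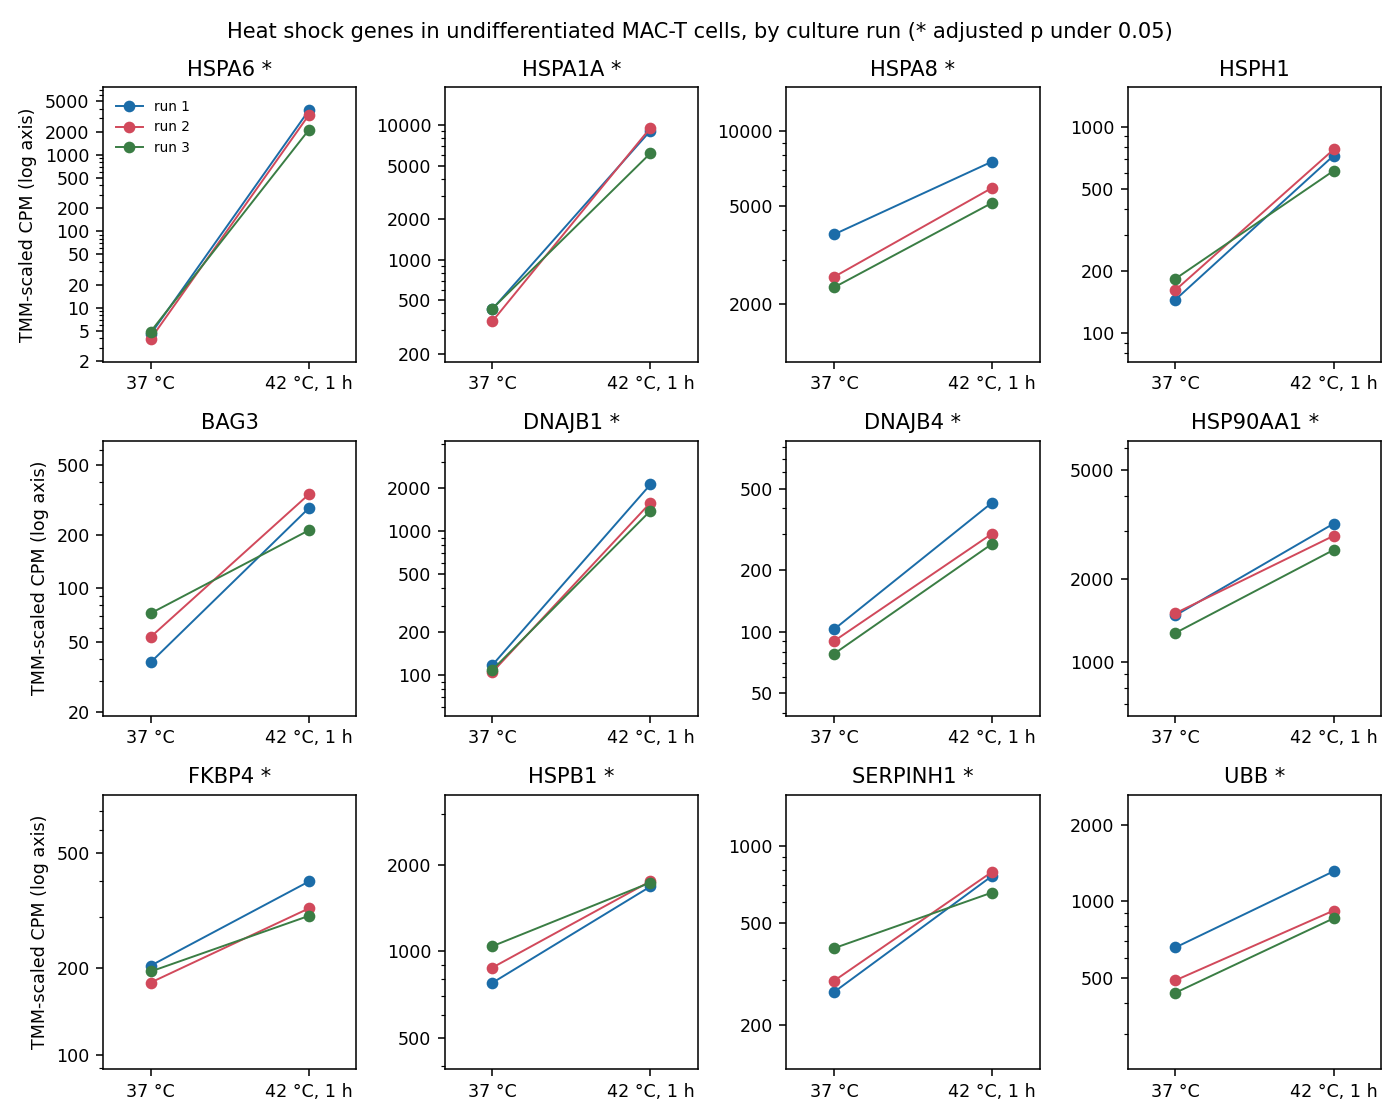
TMM-scaled CPM (vertical log axes) of 12 heat shock and ubiquitin genes in the unheated and heated library of each culture run. Lines join the 2 libraries of a run, and an asterisk marks an adjusted p under 0.05. All 36 lines rise, and HSPH1 and BAG3 carry no asterisk although their groups do not overlap.

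J-domain proteins, which deliver clients to HSP70 and trigger its ATPase, had 2 of 22 members called higher and 0 lower (median 0.14), and 3 higher without HSUD replicate 2, with DNAJC19 added. DNAJB1, the main partner of inducible HSP70, was at 117, 105 and 109 CPM without and 2104, 1572 and 1382 CPM with heat. The groups are separated more than 10-fold, with a log2 fold change of 3.93 ± 0.28 (adjusted p of 1.09e-05). It was one of 2 named genes, with CCDC117, that were called under all 18 alternatives. DNAJB4, a cytosolic relative, was at 103, 89.9 and 77.9 CPM and at 427, 301 and 268 CPM, a log2 fold change of 1.86 ± 0.24 (adjusted p of 0.00218). DNAJA1, DNAJB5 and DNAJA4 had estimates of 1.01 ± 0.29, 0.79 ± 0.23 and 0.70 ± 0.19 (SE) without overlap of the groups and were not called (0.18, 0.17 and 0.16).

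Nucleotide exchange factors release the client from HSP70. None of the 9 tested was called, with a median of 0.16, although 2 had large estimates. BAG3, which also links HSP70 to small heat shock proteins and to autophagy, was at 38.2, 53.1 and 72.2 CPM in NHSUD and at 284, 339 and 213 CPM in HSUD. The order of the runs turned round, run 1 being lowest without heat and run 3 lowest with it, and the log2 fold change was 2.38 ± 0.62 (adjusted p of 0.169). HSPH1, the inducible HSP110, was at 146, 162 and 184 CPM and at 726, 777 and 613 CPM, a log2 fold change of 2.11 ± 0.56 (adjusted p of 0.173). Neither gene overlapped between the groups, as was so for 7.62% of all tested genes in either direction. In the fit of the 6 libraries alone with the block, 3 members were called higher (HSPH1, BAG2 and HSPA4L), as were 0.895% of all genes (1.85% called in either direction). BAG3 was called by DESeq2 and in the 6 libraries without the block.

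Of the 16 tested genes of HSP90 and its cochaperones, 2 were called higher and 0 lower, with a median of 0.24, and 12 were higher in the heated library of all 3 runs, as were 17.7% of all tested genes. HSP90AA1, the inducible cytosolic HSP90, was at 1475, 1502 and 1273 CPM and at 3184, 2875 and 2554 CPM. It about doubled in every run (log2 fold change 1.02 ± 0.12, adjusted p of 6.57e-05). FKBP4, a peptidyl-prolyl isomerase that works with HSP90 on steroid receptors, was at 204, 178 and 194 CPM and at 399, 322 and 303 CPM (0.83 ± 0.14, adjusted p of 0.00364), a call lost without HSUD replicate 1 (0.0516). Without HSUD replicate 2, 6 members were called higher: HSP90AA1, HSP90AB1, AHSA1, STIP1, PPID and FKBP4. With all 18 libraries, the cochaperones AHSA1 and STIP1 had estimates of 0.37 ± 0.09 and 0.43 ± 0.10 (adjusted p of 0.055 and 0.068).

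Small heat shock proteins bind unfolding clients without ATP. HSPB1 was the 1 called member of 6 tested (median 0.39; the same without HSUD replicate 2), and 4 of the 10 listed were too low to test. It was at 777, 878 and 1042 CPM and at 1683, 1756 and 1738 CPM. The heated libraries lay within a narrow band although the unheated ones differed, and the log2 fold change was 0.95 ± 0.15 (adjusted p of 0.00218). CRYAB had an estimate of 0.87 ± 0.20 (adjusted p of 0.08).

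Chaperones of other compartments were not called. Among 13 mitochondrial chaperones and proteases the largest estimates were those of HSPE1 (0.46 ± 0.13, adjusted p of 0.138) and HSPD1 (0.37 ± 0.11, adjusted p of 0.154), the 2 parts of the mitochondrial chaperonin. Without HSUD replicate 2, HSPE1, HSPD1 and GRPEL1 were called higher. All 8 subunits of TRiC, the cytosolic chaperonin for actin and tubulin, had estimates between 0.17 and 0.22 and none was called. Of 23 genes of the endoplasmic reticulum and its unfolded protein response 0 were called (median 0.06), and DNAJB9 had the largest estimate (0.54 ± 0.17, adjusted p of 0.184). In the fit of the 6 libraries alone with the block, HSPE1, DNAJB9 and HERPUD1 were called higher, as were 0.895% of all genes. HSPA5, the HSP70 of the endoplasmic reticulum, changed by 0.22 ± 0.15. SERPINH1, the collagen-specific chaperone HSP47 that resides there but carries heat shock elements in mammals, is in no list and behaved otherwise. It was at 268, 296 and 397 CPM and at 761, 789.8 and 656 CPM, a log2 fold change of 1.23 ± 0.24 (adjusted p of 0.0285), and lost its call without any 1 NHSUD library or HSUD replicate 1 (0.0975 to 0.19).

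The genes of the heat shock transcription factors were not called. HSF1 was at 39.3, 40.2 and 45.2 CPM without and 34.2, 43.5 and 38.5 CPM with heat. The groups overlapped, and the log2 fold change was -0.10 ± 0.12 (adjusted p of 0.768). HSF2 changed by 0.17 ± 0.12. HSF5 had the list's largest estimate (1.12 ± 0.71, adjusted p of 0.528) at under 0.4 CPM in all 6 libraries.

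**Figure D3:**
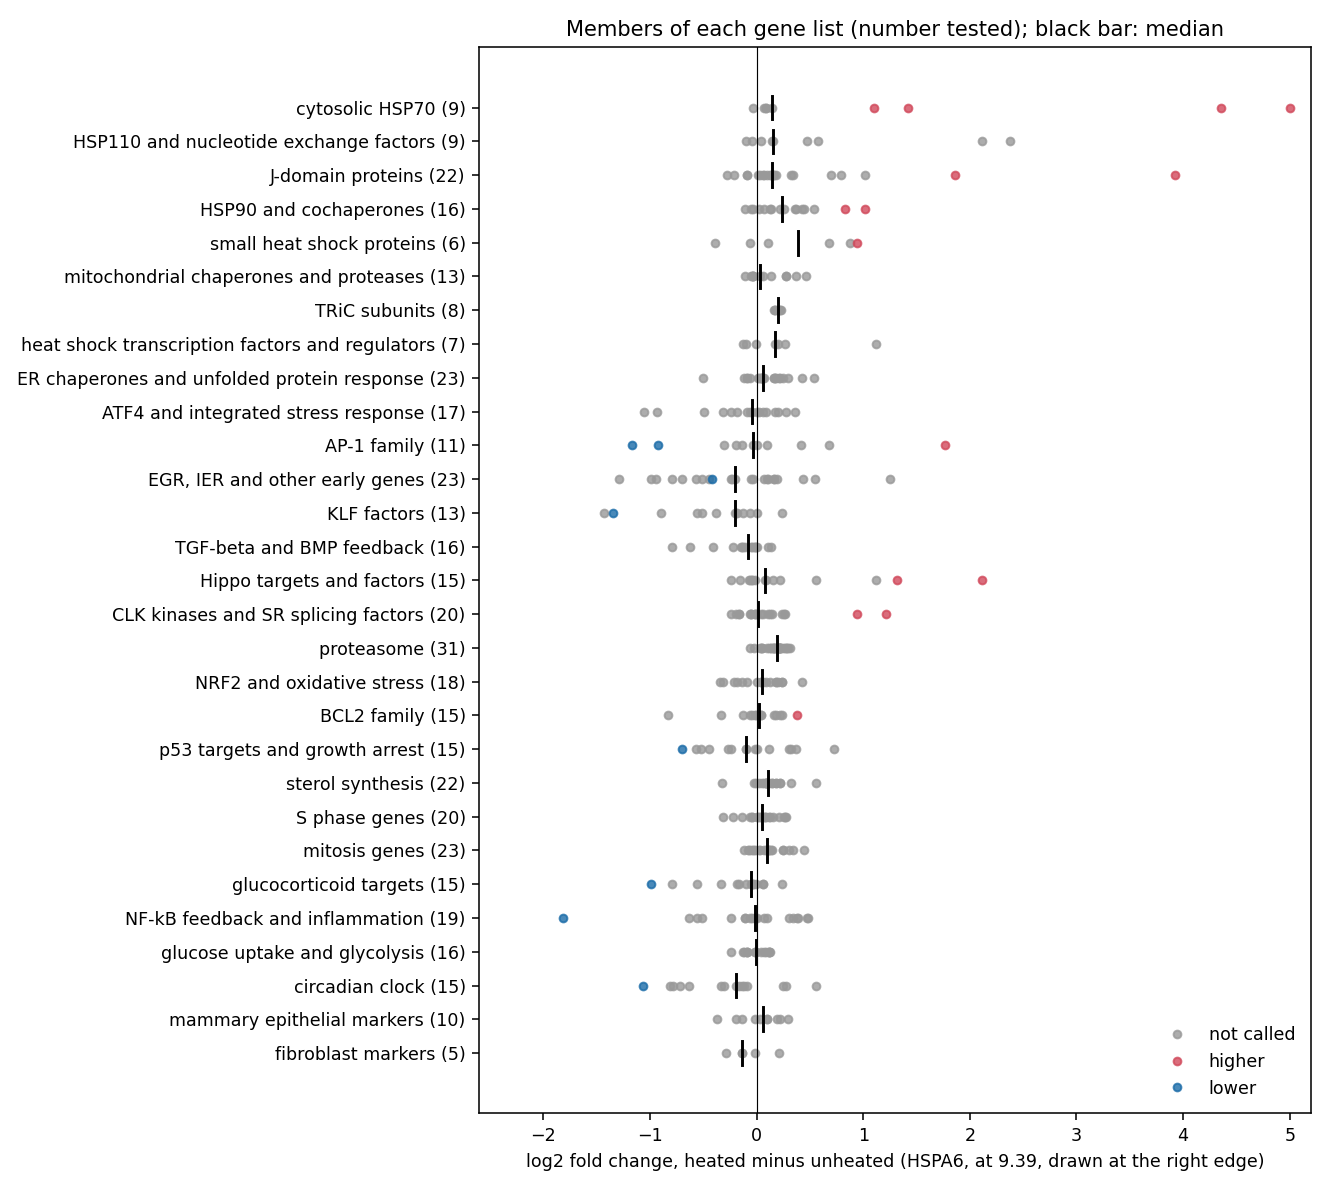
Log2 fold change with heat (horizontal axis) of the tested members of 29 gene lists, with the number tested in brackets. Red and blue points were called higher and lower, grey points were not called, and black bars are list medians. At most 4 members of a list were called (HSP70), and the medians lie between -0.20 and 0.39.

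Ubiquitin marks proteins for the proteasome. UBB, which encodes a chain of fused ubiquitin copies, was at 659, 489 and 437 CPM and at 1313, 920.0 and 858 CPM. This was a near doubling in each run (0.96 ± 0.11, adjusted p of 6.57e-05), called whichever library was left out and not called without the block (0.186). RPS27A, which encodes ubiquitin fused to a ribosomal protein, had an estimate of 0.42 ± 0.14 (adjusted p of 0.198) and was called higher without HSUD replicate 2. The count of proteasome subunits changed with 1 library. Of 31 tested, 0 were called (median 0.19, 29 estimates above 0), and without HSUD replicate 2, 15 were called higher (median 0.32), in a fit where 3.45% of all genes were. PSMB7 was at 215, 167 and 156 CPM without heat and at 303, 156 and 222 CPM with it, lower in HSUD replicate 2 than in its unheated partner.

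Of the splicing regulators, the kinases CLK4 and CLK1 were called higher. CLK kinases phosphorylate SR proteins, which choose splice sites. CLK4 was at 14.0, 15.02 and 13.8 CPM and at 41.5, 28.7 and 30.2 CPM (1.21 ± 0.14, adjusted p of 6.57e-05). CLK1 was at 61.6, 64.6 and 60.9 CPM and at 133, 107 and 121 CPM (0.94 ± 0.12, adjusted p of 0.000121). Unheated values of both agreed closely between runs, and the heated ones lay well above. CLK2 and CLK3 changed by -0.17 ± 0.11 and 0.04 ± 0.09, and all 11 tested SRSF genes had estimates between -0.24 and 0.25, so 2 of the list's 20 members were called (median 0.02; the same 2 without HSUD replicate 2). RSRP1, an arginine- and serine-rich protein in no list, went from 23.9, 21.3 and 21.1 CPM to 65.8, 59.5 and 40.9 CPM (1.30 ± 0.17, adjusted p of 0.00033).

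Further raised genes were not chaperones. CCDC117, a coiled-coil protein, was at 26.5, 28.6 and 28.5 CPM and at 76.0, 82.4 and 74.8 CPM. The 3 runs gave ratios of 1.52, 1.53 and 1.39 (log2), and the fitted change was 1.48 ± 0.14 (adjusted p of 5.75e-06). USPL1, a SUMO-specific isopeptidase of Cajal bodies, was at 10.9, 16.0 and 12.3 CPM and at 32.3, 39.1 and 30.7 CPM (1.39 ± 0.13, adjusted p of 5.75e-06). DEDD2, a nuclear death effector domain protein, rose from 31.9 ± 2.65 to 76.4 ± 13.3 CPM (1.26 ± 0.15, adjusted p of 0.000142). These 3 genes kept their calls in each single-library omission. So did NABP1, a single-stranded DNA-binding protein (1.17 ± 0.18, adjusted p of 0.00212). RGS2, which shortens G protein signalling, changed by 1.16 ± 0.20 (0.00739) and was not called without NHSUD replicates 1 or 3 or HSUD replicate 1 (0.0579 to 0.0642). The deposited table holds a second entry named RGS2_1 (1.13 ± 0.19), and reads may be split between the 2. MCL1, a short-lived survival protein of the BCL2 family, was the 1 called member of 15, at 303, 292 and 332 CPM and at 411, 385 and 407 CPM (0.38 ± 0.08, adjusted p of 0.0285). Its call was lost without any 1 library except HSUD replicate 2 (0.0865 to 0.165).

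The AP-1 family split. AP-1 is a dimer of JUN and FOS proteins whose genes are switched on within minutes of a stimulus. JUN rose, from 78.5, 78.1 and 105 CPM to 311, 271 and 299.7 CPM, a log2 fold change of 1.76 ± 0.33 (adjusted p of 0.0412), while FOS and JUNB fell. FOS was at 46.6, 41.9 and 33.4 CPM and at 18.7, 19.1 and 15.8 CPM (-1.17 ± 0.16, adjusted p of 0.00033). JUNB was at 133, 112 and 184 CPM and at 71.8, 72.4 and 76.4 CPM (-0.93 ± 0.12, adjusted p of 0.000258). Unheated JUNB varied with the run, and the heated libraries were alike. Of 11 tested members 1 was called higher and 2 lower (median -0.04), with the same 3 calls without HSUD replicate 2. The JUN call was lost without any 1 library except HSUD replicate 2 (0.132 to 0.206), and the FOS and JUNB calls were lost without the block (0.224 and 0.0979).

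Of 23 other early response genes tested, 0 were called higher and 1 lower (median -0.20; 9 estimates above 0 and 14 below), the antiproliferative BTG1, at 363, 427 and 546 CPM and at 282, 295 and 425 CPM. Its groups overlapped while each heated library lay below its own partner (-0.42 ± 0.09, adjusted p of 0.0329). That call was lost without any 1 library except HSUD replicate 2 (0.081 to 0.197). Without HSUD replicate 2, ZFP36 and ZFP36L2, which destabilise AU-rich mRNAs, were called lower too. The orphan receptors NR4A1 and NR4A2 had estimates of -0.99 ± 0.26 and -0.94 ± 0.24 (adjusted p of 0.11 and 0.10). EGR2 had an opposite estimate of 1.25 ± 0.37 (0.17), and EGR1 and MYC changed by 0.44 ± 0.35 and 0.20 ± 0.21.

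KLF10, a zinc-finger repressor induced by TGF-beta, was the most strongly lowered called gene above 5 CPM. It was at 77.4, 98.2 and 99.97 CPM and at 27.0, 39.9 and 42.3 CPM, a log2 fold change of -1.35 ± 0.13 (adjusted p of 7.17e-06). Each heated library held less than the lowest unheated one by a wide margin. Of the 13 tested KLF genes 0 were called higher and 1 lower (median -0.20), and 8 were lower in all 3 runs, as were 16.8% of all tested genes. KLF2, which responds to shear stress and statins in endothelium, was at 12.3, 10.8 and 7.37 CPM and at 4.79, 6.46 and 1.64 CPM (-1.43 ± 0.34, adjusted p of 0.0829). Without HSUD replicate 2, KLF2 and KLF13 were called lower beside KLF10. The TGF-beta and BMP feedback list had 0 calls among 16 genes (median -0.08).

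Hippo signalling restrains the coactivators YAP and TAZ, whose targets report cell spreading and density. CYR61, a matricellular target also named CCN1, was at 60.4, 46.6 and 35.4 CPM and at 289, 231 and 123 CPM (2.11 ± 0.36, adjusted p of 0.0247). AMOTL2, a junction protein that is both target and inhibitor of YAP, was at 34.2, 31.7 and 27.8 CPM and at 82.0, 98.7 and 59.6 CPM (1.32 ± 0.15, adjusted p of 4.55e-05). In both genes run 3 gave the lowest heated value. CTGF had an estimate of 1.12 ± 0.44 (0.32) and ANKRD1 one of 0.55 ± 0.38 (0.57), while YAP1, WWTR1 and the 4 TEAD genes lay between -0.16 and 0.22, so 2 of 15 members were called higher (median 0.08; the same 2 without HSUD replicate 2). The CYR61 call was lost without any 1 library except HSUD replicate 2 (0.092 to 0.141) and without the block (0.132), and the AMOTL2 call was lost without the block (0.0979).

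Several lowered genes encode regulators of growth and signalling. SGK1, a kinase induced by serum and glucocorticoids, was at 40.7, 58.6 and 75.2 CPM and at 22.1, 26.4 and 38.6 CPM. The runs kept their order and each about halved (-0.99 ± 0.11, adjusted p of 4.55e-05). It was the 1 called gene of 15 glucocorticoid targets (median -0.05), where FKBP5 and TSC22D3 changed by -0.03 ± 0.10 and 0.06 ± 0.15. Without the block, which removes such run differences, SGK1 was not called (0.6). BHLHE40, a transcriptional repressor tied to the circadian clock, was at 113, 129 and 153 CPM and at 42.6, 79.6 and 69.8 CPM (-1.07 ± 0.15, adjusted p of 0.00112; 1 of 15 clock genes, median -0.19; 0.193 without the block). PLK2, a kinase of the p53 response, was at 839, 745 and 696 CPM and at 552, 461 and 401 CPM (-0.70 ± 0.11, adjusted p of 0.00177; 1 of 15 p53 targets, median -0.10; 0.132 without the block).

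SLC7A5, the leucine transporter LAT1 that feeds mTORC1, was at 173, 162 and 188 CPM and at 88.4, 102.7 and 118 CPM (-0.77 ± 0.11, adjusted p of 0.000816). TCIM, a small protein linked to Wnt signalling, fell from 92.3 ± 7.28 to 56.3 ± 2.22 CPM (SD, n = 3; -0.71 ± 0.10, adjusted p of 0.000961). Neither was called without the block (0.0574 and 0.064), and both were called whichever library was left out. HES1, the repressor that Notch induces, went from 46.8 ± 5.08 to 28.6 ± 3.95 CPM (-0.71 ± 0.13, adjusted p of 0.00739), and was not called without NHSUD replicate 3 or HSUD replicate 1 (0.0534 and 0.0543). LIF, a cytokine of the interleukin-6 family, was at 1.80, 1.32 and 2.23 CPM and at 0.322, 0.688 and 0.467 CPM (-1.82 ± 0.37, adjusted p of 0.0184), the 1 called member of 19 NF-kB and inflammatory genes (median -0.01). Its call was lost without 4 single libraries (NHSUD replicates 1 or 3, HSUD replicates 1 or 3; 0.0685 to 0.174).

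The other lowered genes named by rule were low and less stable. The kinase MAP3K8, the Wnt receptor FZD8, the RNA-binding UNK, the atypical inhibitor NFKBIZ and the nuclear factors FOXE1, CHAMP1 and ZNF628 started at means of 6.79 to 18.3 CPM in NHSUD. Their log2 fold changes ran from -0.78 ± 0.18 (FZD8) to -1.05 ± 0.21 (ZNF628), with adjusted p of 0.0135 (CHAMP1) to 0.0427 (FZD8). In all 7 the heated libraries lay below the unheated ones, as the naming rule required. All 7 calls were lost in 3 to 5 of the 6 single-library omissions and without the block. MAP3K8, UNK and NFKBIZ needed each library except HSUD replicate 2. FOXE1 lost its call without any NHSUD library or HSUD replicate 3, ZNF628 without NHSUD replicates 2 or 3 or HSUD replicates 1 or 3, CHAMP1 without NHSUD replicate 3 or HSUD replicates 1 or 3, and FZD8 without NHSUD replicates 1 or 2 or HSUD replicates 2 or 3. Over the 7 genes those adjusted p ran from 0.0555 (UNK) to 0.255 (FZD8).

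No member was called in the lists of the integrated stress response (17 tested, median -0.04), sterol synthesis (22, 0.10), S phase (20, 0.06), mitosis (23, 0.09), NRF2 and oxidative stress (18, 0.06) and glycolysis (16, -0.01). CHAC1, a glutathione-degrading target of ATF4, had an estimate of -1.06 ± 0.45 (0.367), and its groups did not overlap. In the fit of the 6 libraries alone with the block, CHAC1 and DDIT4 were called lower and INSIG1 higher. There, 0.959% of all genes were called lower and 0.895% higher. The heme oxygenase gene HMOX1, often induced by heat in other cells, changed by 0.05 ± 0.13 (adjusted p of 0.92). Without HSUD replicate 2, single members of these lists were called: DDIT4, VLDLR and GCLC lower, GINS2 and PTTG1 higher. In that fit the lists described above gained PLK3 and BBC3 lower and CXCL5 higher. Each list gained 1 or 2 calls of 15 to 23 members, where 4.94% of all genes were called.

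The runs were next compared for the 96 called genes, without a test since the same libraries chose them. Each of the 96 changed in its called direction in all 3 runs. The median log2 ratio of the 58 higher genes was 1.11 in run 1, 1.02 in run 2 and 0.94 in run 3, and that of the 38 lower genes was -0.74, -0.70 and -0.95. Run 3 thus had the smallest median rise and the largest median fall. Of the 9 called genes in the chaperone lists, HSPA6, HSPA1A, DNAJB1, FKBP4 and HSPB1 had their smallest ratio in run 3, with HSPA1A at 3.84 there against 4.41 and 4.78. DNAJB4, HSP90AA1 and HSPA1L had theirs in run 2 (1.74, 0.94 and 1.31), and HSPA8 in run 1 (0.98).

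**Figure D4:**
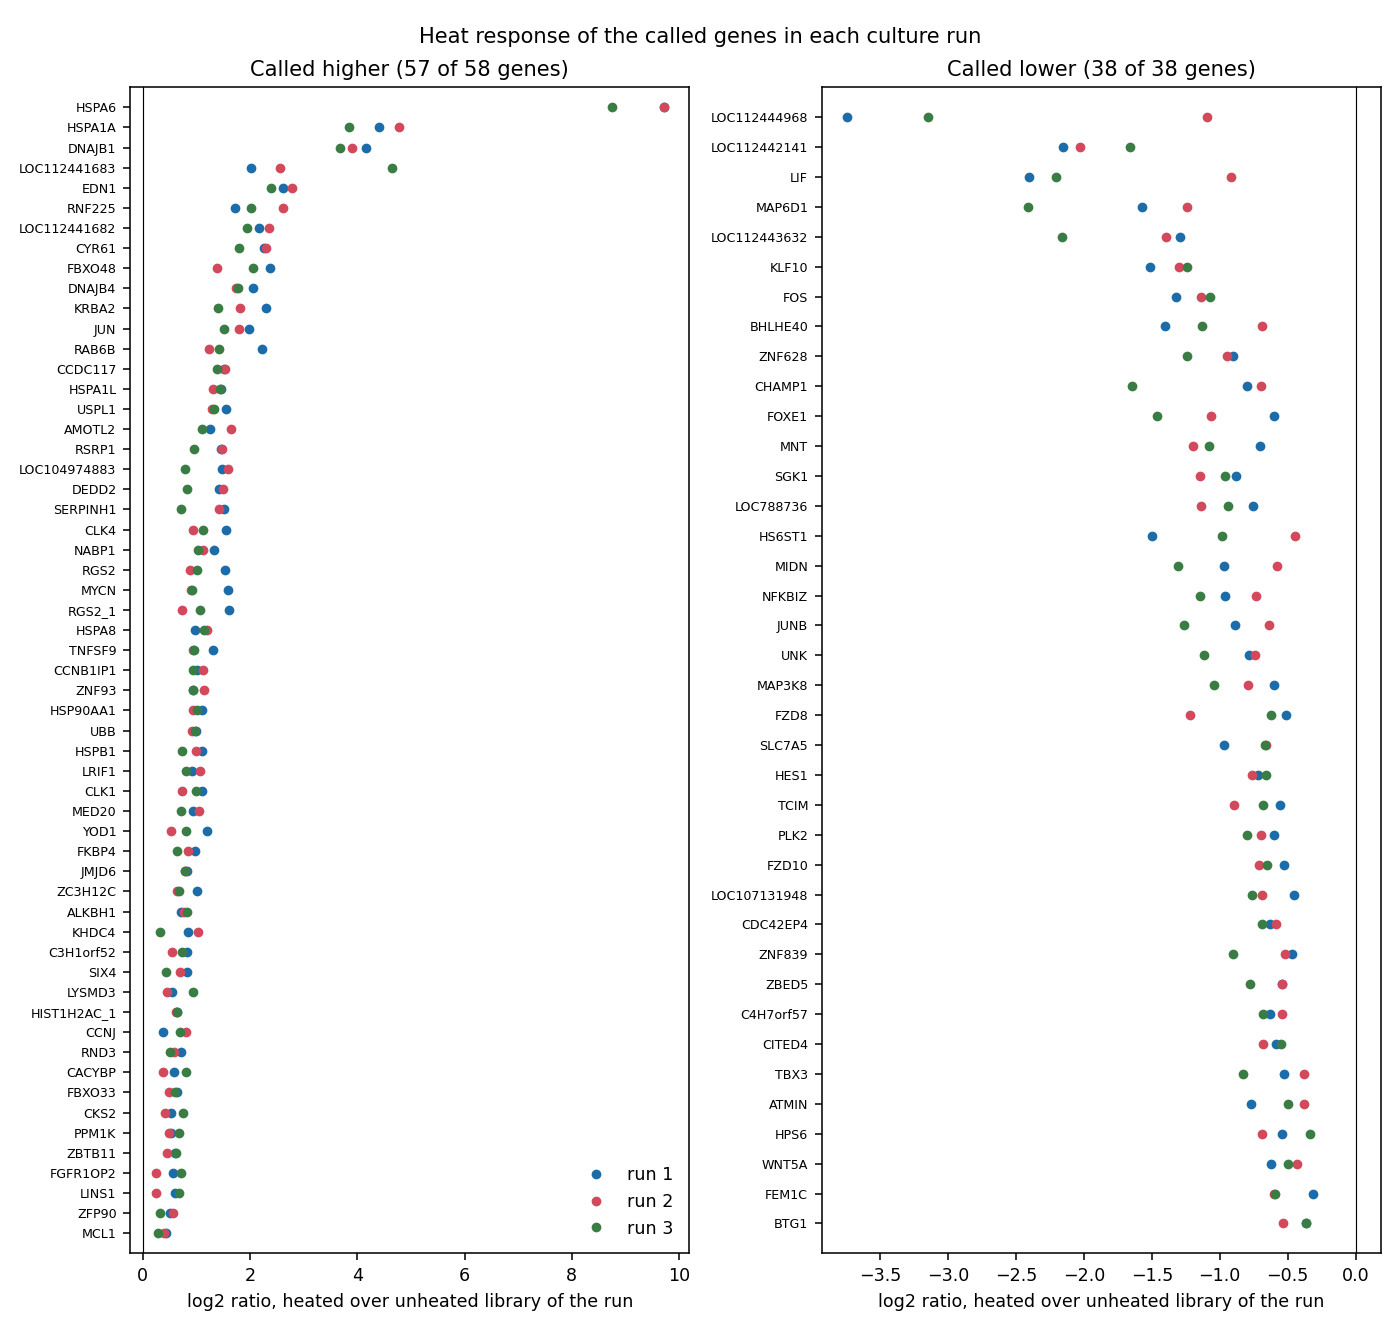
Log2 ratio of the heated to the unheated library within each culture run (horizontal axes, prior count of 1) for 57 of the 58 genes called higher (left) and the 38 called lower (right), ordered by the fitted change. Every point lies on the called side of 0, and the runs are most spread for entries of low count such as LOC112441683 and LOC112444968.

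The same heating in lactogenic medium gave a side-by-side reading from 6 other libraries that share the runs and plates of these. There, 84 genes (0.554%) were called, and 62 of the 96 genes were called in the same direction. The 58 higher genes had a median of 1.04 in basal and 0.90 in lactogenic medium, and the 38 lower genes -0.85 and -0.75. Genes chosen in one medium tend to read lower in the other, so these medians carry no test. The test of the difference called 0 of 15158 genes (0%, edgeR), with 155 at an unadjusted p under 0.05. DESeq2 also called 0, with 200. Both are a smaller share of the genes than the 0.05 that p-values would give without any difference. The test was thus conservative here, and 0 calls do not show that the responses were equal. For DNAJB1 the difference, basal minus lactogenic, was 0.02 (interval of 1.96 SE to either side, -0.68 to 0.71). For CCDC117 it was 0.02 (-0.36 to 0.40) and for KLF10 -0.10 (-0.46 to 0.26). Such intervals are narrower than 95% intervals at the limited degrees of freedom of the test. HSPA1A was less closely bounded, at 0.30 (-1.29 to 1.88). AMOTL2 rose by 1.32 ± 0.15 in basal and 0.83 ± 0.14 in lactogenic medium, a difference of 0.49 (0.09 to 0.89) with an edgeR p of 0.0257 unadjusted and 1.00 adjusted. CYR61 changed by 2.11 ± 0.36 and 1.41 ± 0.35, a difference of 0.71 (-0.26 to 1.67). SGK1 changed by -0.99 ± 0.11 and -0.68 ± 0.11, a difference of -0.31 (-0.62 to -0.01). Its edgeR p was 0.0564 unadjusted (adjusted p of the difference 1.00), although that interval leaves out 0. No gene's response was shown to differ between the media.

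**Figure D5:**
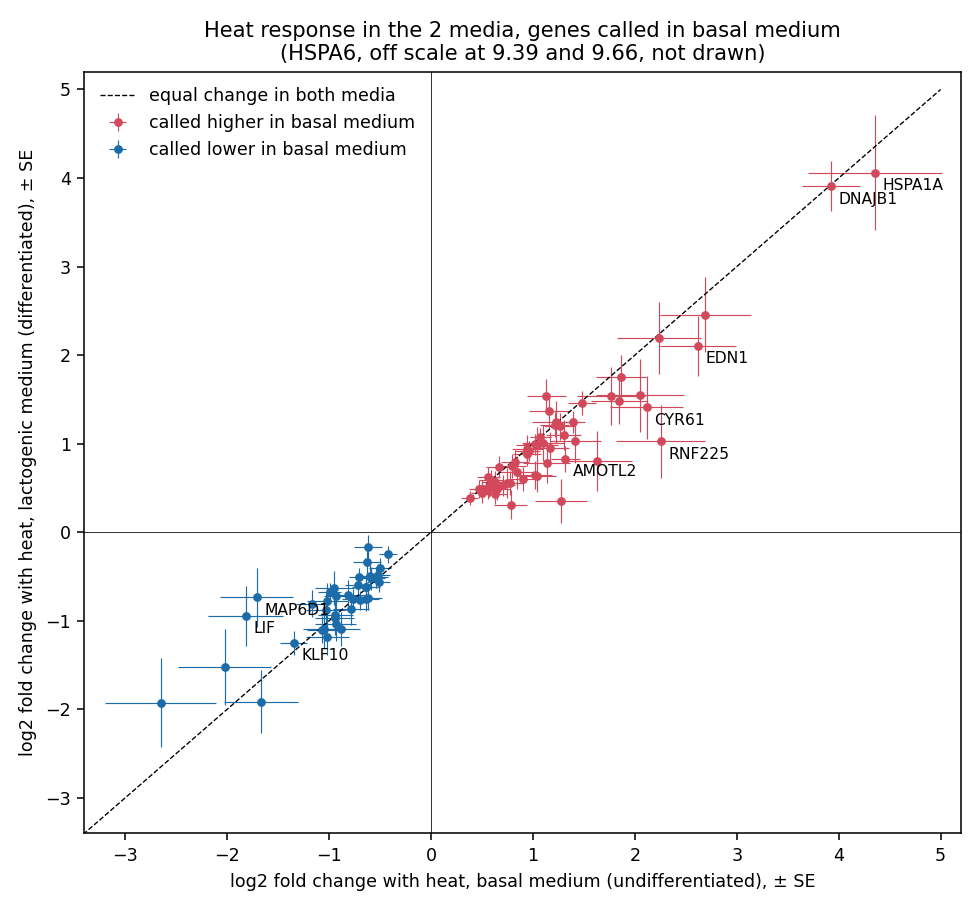
Log2 fold change with heat in lactogenic medium (vertical axis) against that in basal medium (horizontal axis) for 95 of the 96 genes called in basal medium, with bars of 1 SE. HSPA6 lies off scale at 9.39 and 9.66. Points scatter along the dashed line of equal change. Of the 96 genes, 75 had the larger change in basal medium, and genes were chosen by their value on that axis.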

How the data were processed

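The authors deposited raw read counts of 30642 genes in 18 poly-A libraries, in 1 table whose columns all matched a label. Trimming used fastp 0.23.2 and alignment to ARS-UCD 1.3 used STAR 2.7.9a, per the labels' protocols. The submitters' processing notes also list featureCounts 2.0.3. The handling of strand and of multi-mapped reads is not given in the sources used here. Among counts from 1 to 9, 72.4% were even, so a read pair may have added 2.

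Genes were filtered with edgeR 4.0.16 (filterByExpr, minimum count of 10; 15158 genes kept), scaled by TMM and fitted with 6 group means and the replicate number as a block over all 18 libraries (10 residual degrees of freedom, R 4.3.3). The contrast HSUD minus NHSUD was tested with the robust quasi-likelihood test (two-sided, Benjamini-Hochberg over all tested genes). SE came from the F statistic. CPM are relative to library totals (42001929 to 61155755 counts in the 6 compared libraries) multiplied by their TMM factors. With 3 libraries a group, an exact permutation test of 1 gene that ignores the runs cannot go below p = 0.1. Swaps within runs allow fewer arrangements and a higher limit, so genes were tested only through the model. P-values measure the spread left once group and run differences are fitted, over all 6 groups of 1 cell line.

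The experiment was repeated per the labels, which do not say that the numbers mark the repeats; deviations from the group means correlated at 0.40, 0.21 and 0.39 in the same-numbered HSUD and NHSUD libraries and at -0.33 to -0.04 in the others, so the numbers were taken to pair the libraries. Deviations from a group mean cancel out within the group, so the negative values follow in part from the positive ones and are not separate evidence. No library duplicated another in its group (smallest chi-square per gene 63.3). Members, gene lists and tests were chosen with earlier results of these data known.

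Named were 10 fixed heat genes, the 15 highest and 15 lowest called genes (with a symbol, without overlap of the groups, averaging 5 CPM or more), the called members of 34 lists, and the member of each list with the largest estimate; genes outside this rule are marked or are list members given to describe a list. RefSeq names (ARS-UCD 2.0) matched 85.1% of the entries. Coordinates are left out because that build is not the one the authors used. Promoter sequences were not analysed here, and 1 gene's result is not reported here. Alternatives were the fit without the block, of the 6 libraries alone, DESeq2 1.42.0, other scalings and filters, halved counts, and omission of each library or run. The steps were tested on simulated data.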

Additional observations from a re-analysis of the deposited data

How the results depend on the processing

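The count of 96 genes called for heat in undifferentiated cells was 19 with no replicate block, 259 in the fit of the 6 compared libraries alone with the replicate block and 9 in that fit without it, and 228 with DESeq2, where all 96 were among them. It lay between 85 and 139 with median-of-ratios size factors, library size alone, no low-count filter, a filter of 5 CPM in 3 libraries or halved counts. Without 1 of the 6 libraries it ran from 36 to 766, and without 1 run from 30 to 73. In differentiated cells the count of 84 was 15 with no replicate block, 250 with DESeq2 and 28 to 200 without 1 library. These alternatives for differentiated cells were added after the data were seen. No gene was called for the difference between media under any alternative run. Beyond the genes named for it above, the fit of the 6 libraries alone with the block added further list members. DNAJA1, DNAJA4, STIP1, CHORDC1, CRYAB, HSPB8, CTGF and IER5L were called higher there, as were 0.895% of all genes. NR4A1, NR4A2, DUSP1, KLF2, KLF6, KLF13, PLK3, GADD45B and BBC3 were called lower, as were 0.959%. MCL1 and BTG1 lost their calls in it. Fits with fewer libraries had fewer residual degrees of freedom, and the cause of the other shifts was not tested. Of the 42 called genes named, 0 changed direction in the 18 alternatives, 40 lost their call in at least 1 and 2 in none. Of the 25 named genes not called, 10 were called under at least 1 alternative. Of the same 25, 5 changed sign when a library or run was left out: PECAM1 (-0.13 to 3.19), MKI67 (-0.38 to 0.91), COL3A1 (-0.65 to 0.13), BAMBI (-1.21 to 0.24) and EGR3 (-5.55 to 0.090), given as the range of log2 fold changes over these omissions. Depth limits the milk protein genes and the endothelial CDH5, KDR and PECAM1, all under 0.3 CPM, for which no difference was detectable.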

Other observations

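Of the 96 called entries, 8 carry no gene symbol, and 5 of these are listed as small nucleolar RNAs (snoRNAs) in the RefSeq gene table. SnoRNAs guide chemical modification of ribosomal RNA and are mostly cut from introns of host genes. They were described after their values were seen. LOC112441683 and LOC112441682 were called higher and lie inside HSPA8 in that table, with 31, 13 and 1 reads in NHSUD and 87, 90 and 37 in HSUD for the first, and 19, 19 and 17 against 60, 112 and 50 for the second. Their log2 fold changes were 2.69 ± 0.45 and 2.23 ± 0.41, against 1.10 ± 0.21 for HSPA8 (SE). The other 3 were called lower. LOC112442141, inside RPS3A, changed by -2.02 ± 0.45 while RPS3A had an estimate of 0.35 ± 0.13. LOC112443632, inside SNHG3, changed by -1.66 ± 0.36 beside 0.38 ± 0.14 for the host. LOC112444968 changed by -2.65 ± 0.54 beside -0.64 ± 0.13 for its host, the long noncoding RNA LOC107131948.

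Over all 166 tested snoRNA entries, 132 had an estimate below 0, with a median log2 fold change of -0.63 against 0.0088 over all tested genes, and 85 (51.2%) were lower in the heated library of all 3 runs, against 16.8% of all tested genes. Medians were -0.84, -0.42 and -0.66 in runs 1 to 3, -0.89 without HSUD replicate 2, and -0.75 with heat in differentiated cells, where 146 were below 0. Their summed level was 121, 119 and 87.2 CPM in NHSUD and 82.0, 91.5 and 62.0 CPM in HSUD, so the groups overlapped while each heated library lay below its partner. Entries of this kind are short, a poly-A library holds few of them, and reads from the host transcript cannot be told apart from theirs. The part of either in the fall was not tested.

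EDN1, the gene of the vasoconstrictor endothelin-1, had too low a mean for the naming rule and is named here after its values were seen. It was at 0.666, 0.415 and 0.379 CPM without heat and at 4.17, 2.98 and 2.08 CPM with it, a log2 fold change of 2.62 ± 0.37 (edgeR, adjusted p of 0.000698).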
